A study of Mus musculus with 78 samples.

Results

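Brains labelled Ndel1 ko/cko were compared with wild-type brains of mixed background B at postnatal day 14 (P14), 3 arrays against 3, out of 78 arrays in the series. The 6 arrays were chosen by their labels, and mixed B is the wild type that lies on the same side of the first principal component as the mutant. Ndel1 ko/cko stands for a conditional allele over a null allele of Ndel1. The labels name no Cre driver, and the sources used here do not say in which cells the conditional allele was deleted. Mixed B carries no mutant allele by its label, and the labels name neither the strains of that background nor the sex of the animals. Further arrays enter side by side: Ndel1 ko/+ (one null allele) at P14, the 2 Ndel1 groups and mixed B at the day of birth (P0) and at embryonic day 14 (E14), and Lis1 ko/cko (a conditional over a null allele of Pafah1b1) and mixed background A at P14. Each group has 3 arrays, 1 per sample of brain RNA, labelled as biological replicates. The p-values rest on the spread between samples within groups, pooled over all groups in a fit. This spread is not taken from the 2 compared groups alone. At P14 the fit also holds Lis1 ko/+, a second Ndel1 ko/+ group whose label adds Mix, and an inbred wild type. The label of the inbred wild type names its strain. The fits at P0 and E14 also hold mixed A, Lis1 ko/+, Lis1 ko/cko and mutants of Dcx and Ywhae. At P0 the Ywhae mutant, a wild type and a further Ndel1 group carry the name of the inbred strain in their labels. All these groups enter the pooled spread and the choice of tested genes of their age, and any range given over all arrays of that age. Values are log2 RMA intensities, so a difference of 1 is a doubling of the signal, and errors of a difference are standard errors (SE) of the fit.

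Ndel1 encodes a coiled-coil protein that binds LIS1 and the motor protein cytoplasmic dynein and helps dynein to move nuclei and cargo along microtubules. Its close relative Nde1 has an overlapping role in dividing progenitors. 14-3-3 epsilon, the product of Ywhae, binds phosphorylated NDEL1. In the developing mouse brain this complex is known for its part in the migration of newborn neurons, and the series profiles brains with mutations in its members.

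The upstream sequences of 3 genes are shown because the results turn on them: Ndel1 is the targeted gene, Gnb1 had the smallest p-value of all genes, and Cptp is the called gene nearest to Gnb1. Each run spans 250 bases before to 50 bases after the annotated start, read 5′ to 3′ on the gene's strand, from RefSeq in build GRCm38.p6. Ndel1 lies at chr11:68853086-68853385 on the minus strand, Gnb1 at chr4:155491111-155491410 on the plus strand and Cptp at chr4:155869391-155869690 on the minus strand. Capitals mark matches, on either strand, to GGGCGG, the GC box, to CCAAT, the CAAT box, to CACGTG, the E-box palindrome, and to TATAAA, the TATA box. In the Cptp sequence a CCAAT match and its reverse complement overlap.
Ndel1: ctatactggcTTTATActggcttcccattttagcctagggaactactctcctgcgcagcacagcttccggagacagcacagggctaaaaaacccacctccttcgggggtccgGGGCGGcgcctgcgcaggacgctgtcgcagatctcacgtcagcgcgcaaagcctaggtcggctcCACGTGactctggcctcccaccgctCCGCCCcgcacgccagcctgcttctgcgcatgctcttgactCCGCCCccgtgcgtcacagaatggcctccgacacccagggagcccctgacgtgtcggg
Gnb1: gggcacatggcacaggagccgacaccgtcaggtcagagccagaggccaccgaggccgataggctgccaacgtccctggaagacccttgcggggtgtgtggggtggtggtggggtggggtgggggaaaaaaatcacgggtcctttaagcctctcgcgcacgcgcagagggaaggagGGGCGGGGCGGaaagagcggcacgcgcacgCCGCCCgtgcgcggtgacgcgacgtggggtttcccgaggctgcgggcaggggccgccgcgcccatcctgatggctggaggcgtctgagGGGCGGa
Cptp: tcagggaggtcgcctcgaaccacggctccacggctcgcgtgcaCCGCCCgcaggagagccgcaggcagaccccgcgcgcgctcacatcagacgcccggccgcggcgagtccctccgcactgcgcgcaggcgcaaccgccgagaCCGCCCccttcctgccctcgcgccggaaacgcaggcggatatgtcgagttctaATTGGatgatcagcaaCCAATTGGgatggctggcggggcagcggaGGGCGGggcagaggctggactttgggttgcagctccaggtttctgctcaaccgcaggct
Each of the 3 sequences holds GGGCGG, in 3 places for Ndel1, 4 for Gnb1 and 3 for Cptp. This motif is in 35.7% of the 32851 RefSeq upstream sequences of the same length. Of the 22 genes called below, 17 have an upstream sequence in the table, and 8 of them hold GGGCGG in at least 1 sequence, 7 hold CCAAT (37.4% of all sequences), 4 hold CACGTG (7.15%) and 3 hold TATAAA (13.6%). The counts are of genes and the percentages of single sequences, so they have unlike units and cannot be set against each other. A match describes the letters and not a binding site.

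The RNA quality of the 6 arrays overlapped between the groups. The gap of the 3' over the 5' actin probe set, which widens as RNA degrades, spanned 0.637 to 0.717 log2 units in Ndel1 ko/cko and 0.662 to 0.707 in mixed B. Neuronal Syt1 was between 12.78 and 12.94 and the astrocyte water channel Aqp4 between 9.68 and 10.28 on all 6. Liver Alb was between 4.21 and 4.59 and heart Myh6 between 3.24 and 3.55, while pancreatic Ins2 read higher, at 6.35 to 6.68. The brain label fits these markers apart from Ins2. Y-linked Uty was 6.22 to 6.58 on all 6, and Xist stayed between 4.78 and 5.32. Root mean square distances between arrays were 0.232 to 0.270 log2 units within Ndel1 ko/cko, 0.190 to 0.217 within mixed B and 0.217 to 0.276 between them, so distances between the groups overlapped those within Ndel1 ko/cko. Only 3 arrays a group limit the precision.

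Few genes separated the groups. Of 12296 genes tested, 22 (0.179%) were called at adjusted p under 0.05 (limma, Benjamini-Hochberg), 8 higher in Ndel1 ko/cko (0.0651%) and 14 lower (0.114%). The 22 lie on 13 chromosomes, and 20 of them have a gene name beyond a clone label. All 22 had arrays that did not overlap between the groups, as had 1445 of the tested genes (11.8%), 535 higher (4.35%) and 910 lower (7.4%). An unadjusted p under 0.05 was reached by 757 genes (6.16%), 282 higher (2.29%) and 475 lower (3.86%), and the median difference over all genes was -0.01. In 6 runs that each left out 1 array, the counts went as low as 4 higher (without Ndel1 ko/cko replicate 3 or without mixed B replicate 2) and 9 lower (without mixed B replicate 1 or 2), and as high as 12 higher (without Ndel1 ko/cko replicate 1). In these runs 11 of the 22 genes, 3 higher and 8 lower, stayed called each time: Hps1, Lancl2, S100a16, Gdpd3, Fam227b, Gnb1, Trim13, Cptp, Drc1, Frg1 and Ntsr2. Of these, S100a16, Drc1 and Ntsr2 lost their calls in a fit of all 78 arrays (adjusted p of 1.00, 0.254 and 0.185 by limma) and Cptp and Frg1 in a fit of the 6 arrays alone (0.0882 and 0.0767). The plot of all tested genes shows how far Gnb1 stands from the rest.

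**Figure D1:**
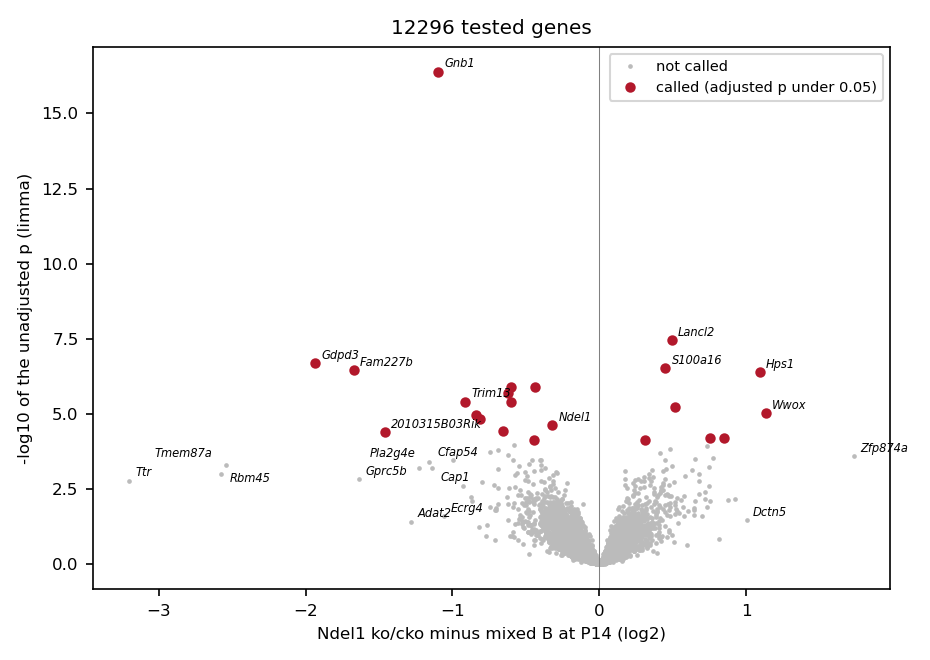
Difference between Ndel1 ko/cko and mixed B at P14 in log2 units (x axis) against the -log10 of the unadjusted limma p (y axis) for the 12296 tested genes. Red points are the 22 called genes, and names are given for genes with a difference of 1 or more in either direction and for 4 further called genes. Gnb1 has by far the smallest p, while Ttr, Rbm45 and Tmem87a have larger differences and were not called.

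Ndel1 itself fell. It had log2 values of 10.13, 10.00 and 9.88 in Ndel1 ko/cko, against 10.32, 10.29 and 10.35 in mixed B. All 3 mutant arrays lay below all 3 mixed B arrays. The difference was -0.32 ± 0.06 (adjusted p = 0.0178 by limma), a signal of 80.1% of mixed B. This call was kept without Ndel1 ko/cko replicate 1, the mutant array with the highest value (adjusted p = 0.00524), and lost without each of the other 5 arrays (adjusted p of 0.0609 to 0.142). In Ndel1 ko/+ at P14 the values were 9.98, 10.00 and 10.04. The difference of Ndel1 ko/cko from Ndel1 ko/+ was -0.0046 ± 0.061 (adjusted p = 0.996), so Ndel1 RNA did not set these 2 groups apart at P14. The second Ndel1 ko/+ group, whose label adds Mix, showed no fall, with 10.54, 10.58 and 10.51, above all mixed B arrays. It lay on the mixed A side of the first component. A second Ndel1 probe set was near background, at 3.96 ± 0.10 in Ndel1 ko/cko and 4.11 ± 0.33 in mixed B (SD, n = 3). The position of either probe set in the gene was not determined here, and one that lies outside the deleted stretch checks nothing.

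The partners of NDEL1 did not pass the test. Nde1 was at 6.42, 6.71 and 6.74 in Ndel1 ko/cko, against 6.51, 6.46 and 6.61 in mixed B, a difference of 0.10 ± 0.12. Pafah1b1, which encodes LIS1, was at 10.35, 10.64 and 10.35 in Ndel1 ko/cko, against 10.47, 10.47 and 10.49 in mixed B, a difference of -0.03 ± 0.08. The groups overlapped in both genes, and the sign for Pafah1b1 turned in some runs without 1 array (-0.13 to 0.01). Ywhae differed by -0.01 ± 0.04 (-0.05 to 0.02 in those runs) and Dcx, which encodes the microtubule protein doublecortin of migrating neurons, by -0.09 ± 0.10. All 4 had an adjusted p near 1 (limma, 0.998 to 1).

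Of 34 tested genes of the LIS1, NDEL1 and dynein list, Ndel1 was the only one called, and at unadjusted p under 0.05 4 members were higher and 3 lower (11.8% and 8.82% of the list, against 2.29% and 3.86% of all genes). The median difference of the list was -0.01, like that of all genes. The dynactin subunit genes Dctn5 and Dctn6 had the largest positive differences. Dctn5 was at 10.16, 10.21 and 10.36 in Ndel1 ko/cko, against 9.73, 8.86 and 9.13 in mixed B (difference 1.00 ± 0.45, adjusted p = 0.776 by limma). These 2 groups did not overlap, but the spread within mixed B was wide. Dctn6 was at 11.03, 10.61 and 10.96 in Ndel1 ko/cko, against 10.05, 10.04 and 10.76 in mixed B, with overlapping arrays (0.58 ± 0.16, adjusted p = 0.215). Hap1, whose product huntingtin-associated protein links cargo to dynactin, gave 0.36 ± 0.15, and the dynein intermediate chain gene Dync1i2 gave -0.20 ± 0.08. Among 61 tested genes that neighbour Ndel1 on its chromosome, up to 50 on each side, limma called 0. Of these neighbours, 3 had an unadjusted p under 0.05, all with negative differences (4.92%, against 3.86% of all genes).

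Gnb1 fell most clearly. It encodes the beta 1 subunit of heterotrimeric G proteins, which passes signals from cell surface receptors to channels and enzymes. Its log2 values were 10.79, 10.70 and 10.63 in Ndel1 ko/cko, against 11.86, 11.81 and 11.73 in mixed B. The lowest mixed B array lay well above the highest mutant array. The difference was -1.10 ± 0.05 (adjusted p = 5.02e-13 by limma), which leaves 46.8% of the mixed B signal. A second probe set of the gene averaged 9.06 ± 0.02 in Ndel1 ko/cko and 10.62 ± 0.08 in mixed B (SD, n = 3), a difference of -1.56 ± 0.07, and the other lay near background in both groups (3.83 and 3.87).

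Low Gnb1 at P14 was limited to Ndel1 ko/cko: the other 21 arrays of that age lay between 11.73 and 11.99. At P14 Ndel1 ko/+ had 11.73, 11.79 and 11.83, within the range of mixed B, and mixed A had 11.98, 11.87 and 11.87. At P0 Ndel1 ko/cko had 11.73, 11.89 and 11.79, against 11.87, 11.84 and 11.22 in mixed B. At P0 the low values were those of Ndel1 ko/+, with 10.14, 11.32 and 10.17, and there Gnb1 differed from mixed B by -1.10 (called). At E14 Ndel1 ko/+ had 11.21, 11.15 and 11.17, while mixed B had 11.72, 11.17 and 11.72. So Gnb1 was low at P14 in all 3 Ndel1 ko/cko arrays and at P0 in 2 of 3 Ndel1 ko/+ arrays. What sets these arrays apart was not tested. Ndel1 RNA had another order at the earlier ages. At E14 it had 9.86, 9.79 and 9.80 in Ndel1 ko/cko, 9.43, 9.47 and 9.44 in Ndel1 ko/+ and 9.91, 9.92 and 9.88 in mixed B. At P0 it had 9.51, 9.63 and 9.53 in Ndel1 ko/cko, 9.40, 9.33 and 9.27 in Ndel1 ko/+ and 9.82, 9.59 and 9.81 in mixed B. At both ages all Ndel1 ko/cko arrays lay above all Ndel1 ko/+ arrays, unlike at P14, and at P0 they overlapped mixed B.

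**Figure D2:**
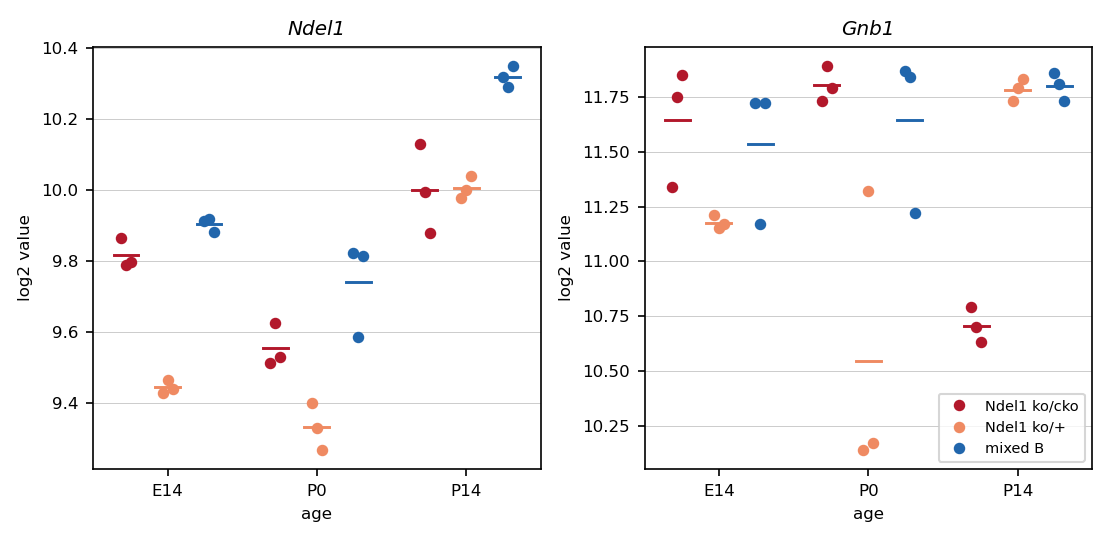
Log2 values of Ndel1 (left) and Gnb1 (right) in each array of Ndel1 ko/cko, Ndel1 ko/+ and mixed B at E14, P0 and P14, with points for arrays and lines for group means. The axes do not start at 0. At P14 Ndel1 is low in both mutant groups, whereas Gnb1 is low in Ndel1 ko/cko only among these 3 groups.

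Gdpd3 and Cptp fell in all runs without 1 array. Gdpd3, which encodes a glycerophosphodiester phosphodiesterase that acts on lysophospholipids, had 4.79, 5.09 and 4.94 in Ndel1 ko/cko, against 6.70, 7.02 and 6.91 in mixed B. Its mutant values lay below the filter of 5.25 that marks the median of all values, so the fall of -1.94 ± 0.27 (adjusted p = 0.000798 by limma) runs into the background of the arrays. Cptp, which encodes the ceramide-1-phosphate transfer protein, had 7.0, 7.35 and 7.47 in Ndel1 ko/cko, against 7.85, 7.80 and 8.03 in mixed B, without overlap (-0.62 ± 0.10, adjusted p = 0.00281). Gnb1 and Cptp share chromosome 4 with 18 protein-coding genes between them. The other called genes of one chromosome have at least 72 between them.

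Bpnt1, a nucleotidase that clears a product of sulfation, had 8.0, 8.36 and 8.34 in Ndel1 ko/cko, against 9.15, 9.26 and 8.73 in mixed B (-0.81 ± 0.15, adjusted p = 0.0121 by limma). Its groups did not overlap, yet the call was lost without Ndel1 ko/cko replicate 1, mixed B replicate 1 or mixed B replicate 2 (adjusted p of 0.0981, 0.109 and 0.139), and its second probe set gave -0.31 ± 0.11 and was not called. Adipor2, an adiponectin receptor, was at -0.66 ± 0.13 (adjusted p = 0.0268), a call kept without mixed B replicate 3 and lost without each of the other 5 arrays (adjusted p of 0.0679 to 0.168). Its second probe set, at 5.61 in Ndel1 ko/cko and 5.57 in mixed B, gave 0.04 ± 0.16 and was not called.

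Further genes that fell have diverse roles. Fam227b had 4.63, 4.71 and 4.90 in Ndel1 ko/cko, against 6.14, 6.34 and 6.78 in mixed B (-1.67 ± 0.24, adjusted p = 0.000798 by limma), again with mutant arrays at background. Its second probe set lay near background in both groups (4.16 and 4.15). Trim13, which encodes a ubiquitin ligase of the endoplasmic reticulum, had 6.85, 6.93 and 7.10 in Ndel1 ko/cko, against 7.97, 7.77 and 7.88 in mixed B (-0.92 ± 0.15, adjusted p = 0.00433). Drc1, a subunit of the dynein regulatory complex of motile cilia, was at -0.60 ± 0.09, and Frg1, which encodes an RNA-associated nuclear protein, was at -0.60 ± 0.10. Ntsr2, a neurotensin receptor gene of astrocytes, had 9.67, 9.85 and 9.80 in Ndel1 ko/cko, against 10.19, 10.20 and 10.25 in mixed B (-0.44 ± 0.07, adjusted p = 0.00199). These 5 genes stayed called in each run without 1 array.

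Shoc2, a scaffold of the Ras and Raf kinases, was at -0.45 ± 0.09 (adjusted p = 0.0417 by limma) and lost its call in all 6 runs without 1 array (adjusted p of 0.0694 to 0.212), while its second probe set gave -0.66 ± 0.11. Of the clone-named genes, 1500035N22Rik was at -0.84 ± 0.15 and 2010315B03Rik at -1.46 ± 0.29. The first lost its call without Ndel1 ko/cko replicates 2 or 3 or mixed B replicate 2 (adjusted p of 0.0748 to 0.0806). The second lost it without Ndel1 ko/cko replicates 1 or 3 or mixed B replicates 1 or 3 (adjusted p of 0.0610 to 0.212).

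Among genes that rose, Lancl2, S100a16 and Hps1 had the smallest p-values by limma, but for Hps1 and Lancl2 only 1 probe set moved. Hps1, which encodes a subunit of the BLOC-3 complex that forms lysosome-related organelles, had 7.08, 7.03 and 6.87 in Ndel1 ko/cko, against 5.70, 5.93 and 6.06 in mixed B. All mutant arrays lay above all mixed B arrays, and the difference was 1.09 ± 0.16 (adjusted p = 0.000798 by limma). Only this probe set of 4 moved: the other 3 gave 0.08, 0.13 and -0.08 at levels near background. Lancl2, a lanthionine synthetase-like protein, had 10.77, 10.91 and 10.76 in Ndel1 ko/cko, against 10.32, 10.28 and 10.36 in mixed B (0.49 ± 0.06, adjusted p = 0.000206). Its 2 other probe sets, at 8.80 and 9.48 in Ndel1 ko/cko and so well above background, gave 0.07 ± 0.10 and 0.09 ± 0.10 and were not called. S100a16, a calcium-binding protein, had 9.71, 9.87 and 9.78 in Ndel1 ko/cko, against 9.37, 9.29 and 9.34 in mixed B (0.45 ± 0.06, adjusted p = 0.000798), and its second probe set gave 0.32 ± 0.09.

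Mitochondrial subunit genes rose in 2 cases. Ndufs5, a subunit of respiratory complex I, had 11, 11.61 and 11.23 in Ndel1 ko/cko, against 10.53, 10.46 and 10.30 in mixed B (0.85 ± 0.18, adjusted p = 0.0387 by limma). Cox6a2, the muscle form of a complex IV subunit, had 7.86, 7.95 and 8.06 in Ndel1 ko/cko, against 7.05, 7.09 and 7.48 in mixed B (0.75 ± 0.15, adjusted p = 0.0387), and its second probe set gave 1.01 ± 0.20. Neither pair of groups overlapped. The call of Ndufs5 was kept only without Ndel1 ko/cko replicate 1 and that of Cox6a2 only without mixed B replicate 3, and the adjusted p was up to 0.222 and 0.212 without each of the other arrays. Neither gene was on the list of oxidative phosphorylation genes, of which 35 were tested and 0 were called by limma (0.179% of all genes). Of the 35, 2 had an unadjusted p under 0.05, both with positive differences (5.71%, against 2.29% of all genes), and the median difference was 0.03.

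Wwox, an oxidoreductase gene with WW domains, had 8.24, 7.14 and 8.29 in Ndel1 ko/cko, against 6.63, 6.85 and 6.80 in mixed B. The mutant arrays were split, with replicate 2 much nearer to mixed B than to the other 2. The difference was 1.13 ± 0.20 (adjusted p = 0.00880 by limma) and 1.51 without Ndel1 ko/cko replicate 2, and the call was lost without Ndel1 ko/cko replicates 1 or 3 or mixed B replicate 1 (adjusted p of 0.0805, 0.114 and 0.0909). The other Wwox probe sets, at levels near background, gave -0.12, 0.23 and 0.03. Ccdc32 was at 0.52 ± 0.09 (adjusted p = 0.00583) and lost its call without mixed B replicate 2 or Ndel1 ko/cko replicate 3 (adjusted p of 0.0759 and 0.0672). Napa, which encodes alpha-SNAP of the membrane fusion machinery, was at 0.31 ± 0.06 (adjusted p = 0.0414) and kept its call only without Ndel1 ko/cko replicate 1 (up to 0.253 without each of the other 5). Its second probe set, at 7.87 in Ndel1 ko/cko and 7.76 in mixed B, gave 0.11 ± 0.10 and was not called. Of genes not called, those of smallest p with a positive difference were the predicted gene Gm19531 (0.73 ± 0.16, adjusted p = 0.0612), named here after its values were seen, Rab3b, a synaptic vesicle GTPase (0.48 ± 0.11, adjusted p = 0.0732), and Fut8, a fucosyltransferase (0.42 ± 0.09, adjusted p = 0.0887).

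**Figure D3:**
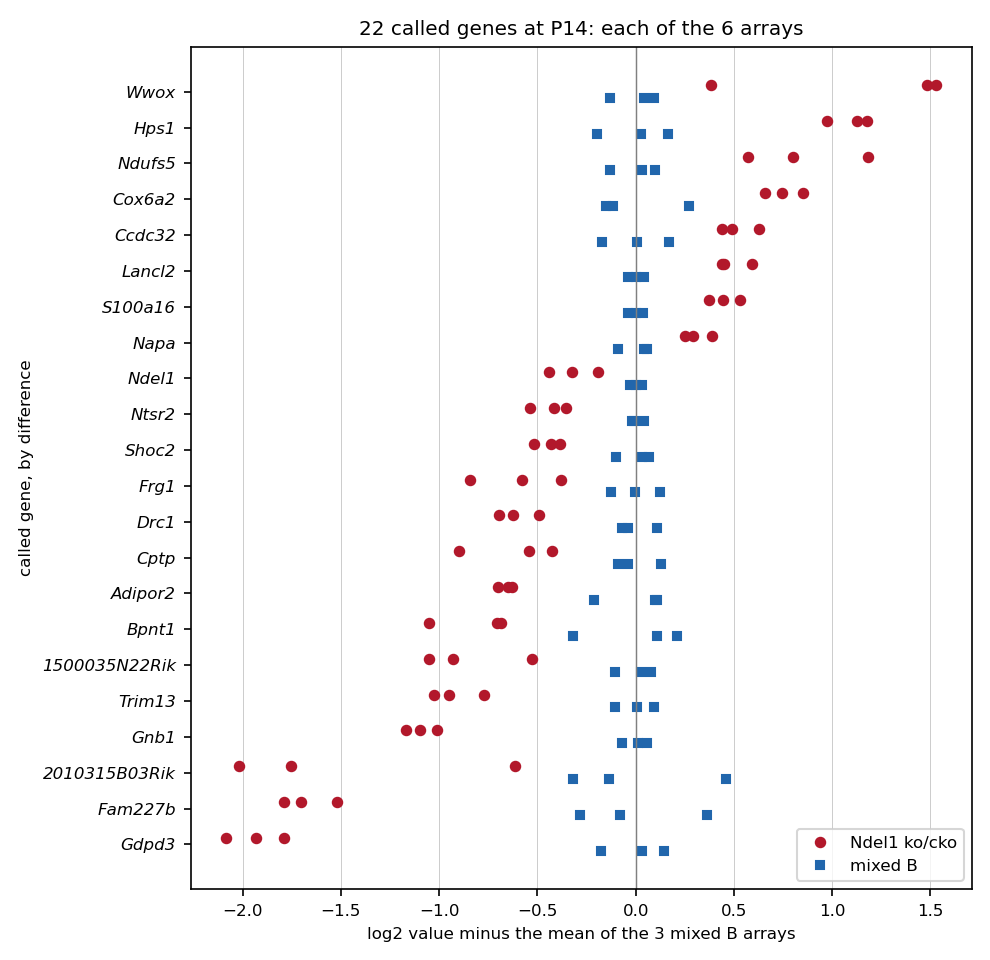
Each of the 6 arrays for the 22 called genes, as the log2 value minus the mean of the 3 mixed B arrays (x axis), with genes ordered by their difference (y axis). Red circles are Ndel1 ko/cko arrays and blue squares mixed B arrays. No gene has overlapping groups, and Wwox and 2010315B03Rik have 1 mutant array apart from the other 2.

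Of the 22 genes, 15 had the same sign in Ndel1 ko/+ at P14 as in Ndel1 ko/cko, most with a smaller difference. Ndel1 ko/+ was set against the same 3 mixed B arrays, so both comparisons share their controls. With limma 0 genes were called in Ndel1 ko/+ at P14 (0%), and 313 had an unadjusted p under 0.05. Gnb1 was at -1.10 in Ndel1 ko/cko and -0.02 in Ndel1 ko/+, Gdpd3 at -1.94 and -0.03, Hps1 at 1.09 and -0.12, and Drc1 at -0.60 and 0.09. S100a16 lay between, at 0.45 in Ndel1 ko/cko and 0.30 in Ndel1 ko/+, as did Fam227b (-1.67 and -0.50), 2010315B03Rik (-1.46 and -0.51) and Wwox (1.13 and 0.35). Ndel1 was alike in both, at -0.32 and -0.32 (adjusted p of 0.0178 and 0.343 by limma). In the direct comparison of Ndel1 ko/cko with Ndel1 ko/+, 38 genes were called (0.309%), and 15 of the 22 were among them, which again shares the mutant arrays. Napa, S100a16, Ndel1, Wwox, Ndufs5, Cox6a2 and 2010315B03Rik were not called there.

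Gene lists of cell types and pathways were then read for shifts that single genes do not pass the test for. Of 53 lists, 52 held 0 genes called by limma, and Ndel1 was the call in the other. Counts at an unadjusted p under 0.05, which 2.29% of all genes reached with a positive and 3.86% with a negative difference, are given instead. In the bulk RNA of a brain, fewer cells of a type and less RNA per cell cannot be told apart.

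Genes of meninges and fibroblasts leaned to negative differences. All 16 tested members had a negative difference, with a median of -0.32, and 9 had an unadjusted p under 0.05 (56.2%). Ogn, an extracellular matrix proteoglycan, had 6.27, 7.17 and 7.06 in Ndel1 ko/cko, against 7.68, 7.67 and 7.78 in mixed B (-0.88 ± 0.29, adjusted p = 0.459 by limma). The mutant arrays lay below mixed B, and replicate 1 lay lowest. Foxc1, a transcription factor of meningeal cells, had 5.2, 5.15 and 5.28 in Ndel1 ko/cko, against 5.93, 5.66 and 5.91 in mixed B (-0.62 ± 0.22), and the collagen gene Col3a1 gave -0.49 ± 0.18. The mean level of the list was 6.88, 7.31 and 7.34 in Ndel1 ko/cko, against 7.64, 7.63 and 7.43 in mixed B. The count of members was 3 without Ndel1 ko/cko replicate 1 and 5 without mixed B replicate 1 or 2, and the median difference ran between -0.42 and -0.21 over the 6 runs.

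Choroid plexus genes varied widely between arrays of one group. All 7 tested members had a negative difference (median -0.48), and 2 had an unadjusted p under 0.05. Ttr, the transthyretin gene that choroid plexus expresses at very high levels, had 6.94, 13.04 and 8.30 in Ndel1 ko/cko, against 13.50, 11.38 and 12.99 in mixed B. Mutant replicate 2 thus lay within mixed B and the other 2 mutant arrays far below it (-3.20 ± 0.90, adjusted p = 0.247 by limma). The mean of the list was 4.57, 5.29 and 4.67 in Ndel1 ko/cko, against 5.62, 4.95 and 5.35 in mixed B, and overlapped. The count was 4 without Ndel1 ko/cko replicate 2 or mixed B replicate 2 and 1 without Ndel1 ko/cko replicate 1, mixed B replicate 1 or mixed B replicate 3. The part that tissue taken with the brain plays in the called genes was not tested.

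Genes of the oligodendrocyte lineage also leaned down. Of 12 tested members 10 had a negative difference (median -0.24), and at unadjusted p under 0.05 6 were lower (50% of the list) and 1 higher. Olig1, a transcription factor of the lineage, had 10.94, 11.17 and 10.81 in Ndel1 ko/cko, against 11.33, 11.20 and 11.32 in mixed B (-0.31 ± 0.09, adjusted p = 0.289 by limma). Sox10 gave -0.33 ± 0.11, Olig2 gave -0.35 ± 0.16 and Pdgfra, the growth factor receptor of the precursors, gave -0.15 ± 0.06, each without overlap of the groups. Lhfpl3 went the other way, with 8.35, 8.46 and 8.69 in Ndel1 ko/cko, against 8.19, 7.91 and 8.04 in mixed B (0.45 ± 0.11, adjusted p = 0.165). The count of lower members was 1 without mixed B replicate 1 and 3 to 7 without each of the other arrays. Of 17 myelin genes 15 had a negative difference (median -0.20) and 1, Tspan2, had an unadjusted p under 0.05 (-0.32 ± 0.12).

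Immediate early genes, which neurons switch on within minutes of activity, had 7 of 23 tested members lower at unadjusted p under 0.05 (30.4%) and 0 higher, with a median of -0.08 that turned to 0.0324 with array weights. Dusp1, a phosphatase that ends MAP kinase signals, had 8.54, 9.07 and 9.31 in Ndel1 ko/cko, against 9.63, 9.79 and 9.74 in mixed B (-0.75 ± 0.17, adjusted p = 0.0841 by limma). Arc, which acts at synapses, had 6.92, 7.43 and 6.91 in Ndel1 ko/cko, against 7.66, 8.16 and 8.03 in mixed B (-0.86 ± 0.30, adjusted p = 0.522). Both groups were apart in both genes. Jun gave -0.49 ± 0.16 and Btg2 gave -0.71 ± 0.27, while Fos gave -0.24 ± 0.24 with overlapping arrays. The count was 4 without Ndel1 ko/cko replicate 1 or mixed B replicate 2.

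Axon guidance and stress response lists also held lower members. Of 38 axon guidance genes 6 were lower at unadjusted p under 0.05 (15.8%), among them the secreted Sema3c (-0.38 ± 0.11) and the ephrin receptor Epha3 (-0.62 ± 0.18), and the list's median was -0.05. Of 19 genes of the unfolded protein and amino acid stress response 4 were lower (21.1%, median -0.15), such as Sdf2l1 (-0.34 ± 0.13). In endothelium and mural cells 3 of 19 were lower (median -0.12), with the tight junction gene Cldn5 at -0.40 ± 0.11. Of 18 cell cycle genes 3 were lower (16.7%, median -0.18), with the ubiquitin-conjugating enzyme gene Ube2c at -0.48 ± 0.14. Of 14 extracellular matrix and perineuronal net genes 3 were lower (21.4%) and 1 higher (median -0.13), with the proteoglycan gene Ncan at -0.32 ± 0.10. Of 14 genes of hippocampal and cortical excitatory neurons 3 were lower (21.4%, median -0.05), with the kinase gene Camk2a at -0.29 ± 0.10, and of 23 postsynaptic scaffold genes 3 were lower (13%, median -0.04), Camk2a and Arc among them. Genes of striatal projection neurons followed single arrays: the list averaged 8.41, 7.41 and 7.48 in Ndel1 ko/cko, against 8.11, 7.56 and 7.91 in mixed B, and 0 of 14 had an unadjusted p under 0.05. Deep-layer, upper-layer and interneuron lists had medians between -0.03 and 0.04.

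**Figure D4:**
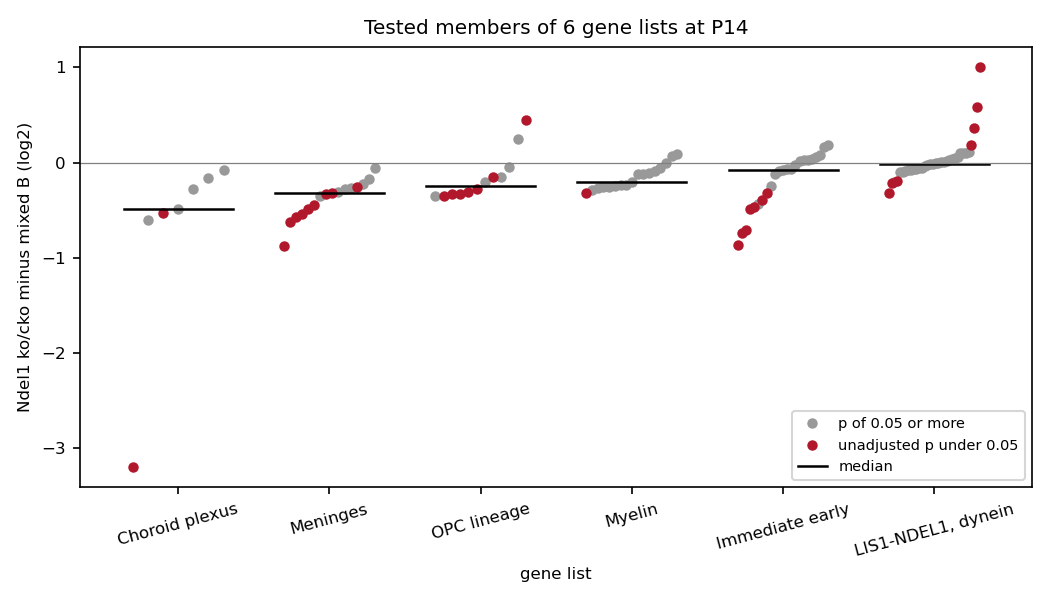
Difference between Ndel1 ko/cko and mixed B at P14 in log2 units (y axis) for the tested members of 6 gene lists (x axis). Red points have an unadjusted p under 0.05, grey points do not, and black lines are list medians. Ndel1 is the only called gene among them, and the medians of choroid plexus (-0.48), meninges (-0.32) and oligodendrocyte lineage (-0.24) lie below that of the LIS1, NDEL1 and dynein list (-0.01).

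The same genotypes were compared at birth. At P0 432 of 11779 genes (3.67%) were called between Ndel1 ko/cko and mixed B, 183 higher and 249 lower, far more than at P14. The actin difference at P0 was 0.386 to 0.449 in Ndel1 ko/cko and 0.277 to 0.358 in mixed B, and did not overlap. Ndel1 ko/cko replicate 3 at P0 held Xist at 11.54, against at most 4.80 on the other 5 arrays. The counts ran between 52 and 147 higher and between 91 and 212 lower when 1 array was left out, lowest for higher genes without mixed B replicate 1 and for lower genes without Ndel1 ko/cko replicate 1. They were 79 higher and 140 lower without Ndel1 ko/cko replicate 3.

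Of the 22 genes called at P14, 21 were tested at P0, 9 had the same sign and 1 was called, Ndufs5. It was at 0.85 ± 0.18 at P14 and 0.85 ± 0.14 at P0 (adjusted p = 0.00110 by limma). Ndel1 was at -0.32 ± 0.06 at P14 and -0.19 ± 0.09 at P0 (adjusted p = 0.288 by limma), and the change between the ages was -0.14 ± 0.11 (adjusted p = 0.670). Other genes that led the P0 comparison were not called at P14. The transcription factor gene Lhx8 was at 0.19 ± 0.28 at P14 and -2.76 ± 0.46 at P0. The midline protein gene Mid1 was at -0.12 ± 0.60 at P14 and -2.54 ± 0.58 at P0, and Mvd, an enzyme of sterol synthesis, at -0.10 ± 0.10 at P14 and 1.03 ± 0.22 at P0. Tcf7l2 (-3.76 ± 0.69), Zic4 (-2.28 ± 0.38) and Lhx9 (-1.94 ± 0.35) were lower at P0 and were under the filter at P14.

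A fit of all 3 ages tested whether the difference itself changed between P14 and P0. It was called in 109 of 13052 genes (0.835%), 55 with a more positive and 54 with a more negative difference at P14. The count of the first was 20 without P0 Ndel1 ko/cko replicate 1 or P0 mixed B replicate 1, and that of the second was 10 without P0 mixed B replicate 1. Of the 22 genes 12 were called, each in the direction of its P14 difference, as the choice by P14 values favours. Gnb1 changed by -1.26 ± 0.22 (adjusted p = 0.00114 by limma), Trim13 by -1.48 ± 0.31, Wwox by 1.36 ± 0.24 and Cox6a2 by 1.02 ± 0.19. Fam227b was also called, but it averaged 3.54 in Ndel1 ko/cko and 3.40 in mixed B at P0, under the filter, so that its call restates the P14 difference. At E14 2 genes were called between Ndel1 ko/cko and mixed B (0.017%), and of the 20 of these genes that were tested there limma called 0, while 646 of all genes had an unadjusted p under 0.05. At E14 the arrays labelled Ndel1 ko/cko held Xist at 11.91 to 12.02 on all 3 arrays, against 11.99, 4.5 and 4.78 in mixed B, and Ndel1 there differed by only -0.09.

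**Figure D5:**
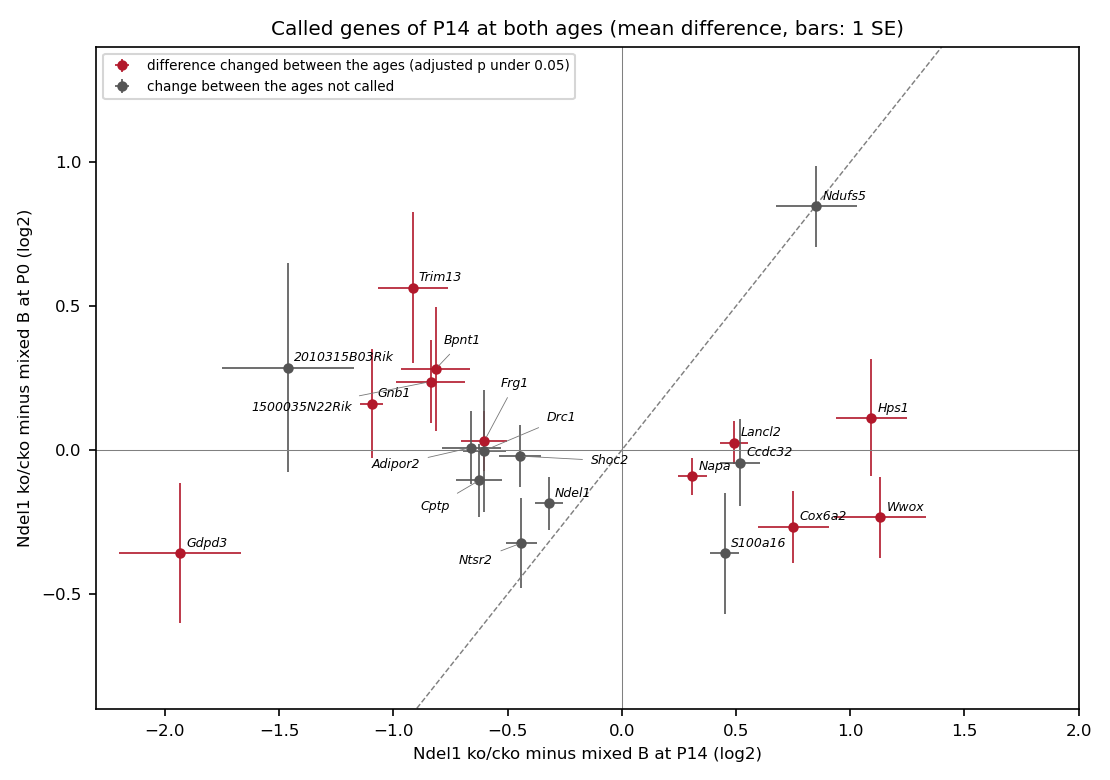
Difference between Ndel1 ko/cko and mixed B in log2 units at P14 (x axis) and P0 (y axis) for the 21 called genes tested at both ages, with bars of 1 SE and a dashed line of equal difference. Red marks genes whose difference changed between the ages at adjusted p under 0.05. Ndufs5 lies on the line, and the other 20 lie between -0.36 (S100a16) and 0.56 (Trim13) at P0.

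A comparison of Ndel1 ko/+ with mixed B at P0, added after the data were seen, called 1115 genes (9.47%), and 9 of the 21 tested genes were among them, 6 with the sign seen in Ndel1 ko/cko at P14. These were Gnb1 (-1.10), Gdpd3 (-1.35), Frg1 (-0.55), Cptp (-0.47), Ndel1 (-0.41) and Lancl2 (0.25). Bpnt1 (1.36), 2010315B03Rik (1.66) and Shoc2 (0.33) had the opposite sign. The actin difference at P0 was 0.391 to 0.431 in Ndel1 ko/+ and 0.277 to 0.358 in mixed B, without overlap. At E14 6 genes were called in Ndel1 ko/+ (0.0511%), of which Ndel1 (-0.46, adjusted p = 0.00874 by limma) is one of the 22. There the actin difference was 0.118 to 0.147 in Ndel1 ko/+, 0.123 to 0.155 in Ndel1 ko/cko and 0.206 to 0.223 in mixed B.

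The Lis1 mutant served as a second mutant of the complex. Lis1 ko/cko was compared with mixed A at P14, the wild type on its side of the first component, so the 2 differences share no array. The difference in Ndel1 ko/cko minus that in Lis1 ko/cko was called in 28 of 12296 genes (0.228%), 13 positive and 15 negative, and 10 of the 22 were among them. The 22 were chosen by a difference that is one part of this contrast, which favours their count and fixes much of its sign. Gnb1 was at -1.10 ± 0.05 in Ndel1 ko/cko and 0.04 ± 0.05 in Lis1 ko/cko (difference -1.13 ± 0.07, adjusted p = 4.87e-10 by limma). S100a16 was at 0.45 ± 0.06 and -0.43 ± 0.06 (0.88 ± 0.09, adjusted p = 5.79e-06), and Adipor2 at -0.66 ± 0.13 and 0.54 ± 0.13 (-1.20 ± 0.18, adjusted p = 0.00225). Wwox was at 1.13 ± 0.20 in Ndel1 ko/cko and 0.59 ± 0.20 in Lis1 ko/cko, and the 2 were not called apart (0.54 ± 0.28, adjusted p = 0.385). The counts were 737 positive and 516 negative without Lis1 ko/cko replicate 3. They were as low as 2 positive without Ndel1 ko/cko replicate 2 and 6 negative without mixed A or mixed B replicate 2.

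The count depended on the wild type. Against mixed A, on the other side of the first component (57.6% of the variance at P14), 6494 genes were called in Ndel1 ko/cko (52.8%), 1761 higher and 4733 lower. Mixed A differed from mixed B in 6478 genes, so genotype cannot be told apart there from whatever separates these wild types. The inbred wild type and the Ndel1 ko/+ group labelled Mix also lay on the mixed A side. Whether background, array processing or another factor separates the sides was not tested. Against mixed A Gnb1, Gdpd3, Hps1 and Ndel1 kept the sign they had against mixed B, whereas S100a16 (-0.47), Napa (-0.26), Fam227b (0.26) and Bpnt1 (0.07) turned.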

How the data were processed

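RNA of mouse brain was measured on 78 Affymetrix arrays, 26 groups of 3. Per the labels' protocols, total RNA was extracted with Trizol and labelled with biotin by in vitro transcription. The authors deposited log2 values of 45101 probe sets, made by RMA per the submitters' processing notes, which name no version of it. Of these probe sets 34945 name 1 gene, 932 several, 9160 none and 64 are controls. Each of 18193 genes took its brightest probe set by the mean of the 78 arrays, and was tested if any group mean was at least 5.253 (the median value). limma 3.58.1 in R 4.3.3 fitted 1 mean per group over all arrays of an age, or of all 3 ages for changes between them, with variances moderated by empirical Bayes with a trend, and p-values were adjusted by Benjamini-Hochberg. The procedure was tested on simulated data. All columns were matched to a sample.

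The named genes are up to 15 called genes a direction with arrays that do not overlap and, where under 10 are called in a direction, the 10 genes of smallest p without overlap. Ndel1, Nde1, Pafah1b1, Ywhae and Dcx are followed throughout, and up to 5 further called genes a direction are named in the other comparisons. Members and lists were chosen with earlier results of these data known, and so was mixed B as the control. Alternatives were no filter, a filter of 7.627, every probe set, quantile normalization, no trend, array weights, fewer or more arrays in the fit, mixed A as a control, a replicate block and leaving out each array. Same-numbered arrays of the 2 groups deviated with correlations of -0.01, -0.17 and 0.09, so the numbers were not taken as pairs. Sequences are RefSeq's (GRCm38.p6), which was otherwise used only for names and neighbours.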

Additional observations from a re-analysis of the deposited data

Results flagged for a closer look

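Of the 22 genes called at P14, 12 had a difference between Ndel1 ko/cko and mixed B that changed between P14 and P0, by the test of that change (limma, adjusted p under 0.05), against 109 of 13052 of all genes (0.835%). The choice of genes by their P14 difference favours this count. The change, P14 minus P0, was 1.36 for Wwox, 1.02 for Cox6a2, 0.98 for Hps1, 0.47 for Lancl2 and 0.40 for Napa. It was -1.81 for Fam227b, -1.58 for Gdpd3, -1.48 for Trim13, -1.26 for Gnb1, -1.10 for Bpnt1, -1.08 for 1500035N22Rik and -0.63 for Frg1. Fam227b averaged 3.54 in Ndel1 ko/cko and 3.40 in mixed B at P0, under the filter of 5.253, so its value restates the P14 difference. In 12 runs that each left out 1 array of the 4 groups, Wwox, Cox6a2, Gnb1 and Fam227b stayed called in all 12. Lancl2 was called in 0, 1500035N22Rik in 1, Hps1 in 2, Bpnt1 in 7, Napa in 10 and Frg1, Trim13 and Gdpd3 in 11. Frg1 lost its call without P14 Ndel1 ko/cko replicate 1, Trim13 without P0 mixed B replicate 1 and Gdpd3 without P0 Ndel1 ko/cko replicate 3.

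The difference in Ndel1 ko/cko also differed from that in Lis1 ko/cko at P14 for 10 of the 22, against 28 of 12296 of all genes (0.228%). The 22 were chosen by the P14 difference that this contrast holds, which favours the count. The gap was 1.10 for Hps1, 0.88 for S100a16 and 0.44 for Lancl2, and -2.80 for Gdpd3, -1.96 for Fam227b, -1.20 for Adipor2, -1.13 for Gnb1, -1.06 for Bpnt1, -0.68 for Cptp and -0.41 for Ndel1. Fam227b was under the filter in Ndel1 ko/cko (4.75), Lis1 ko/cko (4.78) and mixed A (4.49), so its gap has no exact size. S100a16, Adipor2, Fam227b, Gdpd3 and Gnb1 stayed called in all 12 runs without 1 array. Bpnt1 stayed called in 5, Lancl2 and Hps1 in 4, and Cptp and Ndel1 in 3.

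Probe sets with no listed gene, which enter no comparison above, also differed between Ndel1 ko/cko and mixed B at P14. In a fit of all 24529 probe sets that passed the filter, 7 of 2256 without a gene were called (0.310%), 6 higher and 1 lower, against 46 of all 24529 (0.188%).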

How the results depend on the processing

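Without a filter and with the stricter filter the counts at P14 stayed within 1.5 times of 8 higher and 14 lower. The higher count at P14 was 19 with every probe set, 5 with no trend, 22 with array weights and 5 with the replicate block. The lower count was 25 in a fit of the 9 arrays of mixed B and both Ndel1 groups and 26 with array weights. Against mixed A they were 1761 and 4733, and 3 and 8 against mixed A and mixed B jointly. All 18 genes called with the replicate block (5 higher and 13 lower) are among the 22. Ndufs5, Cox6a2, Napa and Shoc2 lost their calls there (adjusted p of 0.0546 to 0.0594 by limma). Ndel1 lost its call in the Ndel1 minus Lis1 difference (adjusted p = 0.0592 by limma), and the block changed no other call of the named genes. A fit of the 6 arrays alone called 28 genes, 15 of them shared, and lost Ndel1, Wwox, Cptp, Frg1, Napa, Shoc2 and 2010315B03Rik. All 78 arrays in the fit called 27 genes, 15 shared, and lost S100a16, Drc1, Ntsr2, Ndufs5, Ccdc32, Shoc2 and 2010315B03Rik. No trend called 15, all shared, and lost Ndel1, Adipor2, Cox6a2, Ndufs5, Napa, Shoc2 and 2010315B03Rik. At P0 every probe set gave 344 and 616 genes and the 6 arrays alone 1060 and 774. For the Ndel1 minus Lis1 difference no filter gave 6 and 9, every probe set 26 and 35, no trend 8 and 9, mixed B for both mutants 2434 and 4793, and quantile normalization 20 positive. Signs turned with array weights for Pafah1b1 (0.0358) and the median of immediate early genes (0.0324), against mixed A for S100a16 (-0.47), Napa (-0.26), Fam227b (0.26), Bpnt1 (0.0699), Nde1 (-0.999) and Dcx (0.0240), jointly for S100a16 (-0.00933) and Nde1 (-0.45), and with mixed B for both mutants for S100a16 (-0.0379). Without 1 array the counts were 4 to 12 higher and 9 to 13 lower at P14, 52 to 147 and 91 to 212 at P0, 20 to 43 and 10 to 46 for the change with age, and 2 to 737 and 6 to 516 against Lis1, while Pafah1b1 ran between -0.131 and 0.0142 and Ywhae between -0.0488 and 0.0204. The cause of these moves was not tested. Values near 5 lie at the background of the arrays and understate a fall.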

Other observations

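Some genes with a large difference that did not pass the test were split between low and high arrays within a group, for some a group outside the comparison. Of 17 genes with a difference of 1 or more at P14, 11 were not called, 2 higher and 9 lower. Of these, Ttr and Dctn5 are described above, and the other 9 are named here after their values were seen. Rbm45, an RNA-binding protein gene, had 5.64, 5.81 and 5.5 in Ndel1 ko/cko, against 8.11, 8.46 and 8.10 in mixed B (-2.58 ± 0.68, adjusted p = 0.192 by limma). At P0 the order was another, with 9.29, 9.26 and 9.14 in Ndel1 ko/cko, against 6.63, 9.31 and 6.68 in mixed B, so that at P0 the low values were in 2 wild-type arrays. Tmem87a had 6.30, 5.90 and 5.99 in Ndel1 ko/cko, against 8.31, 8.69 and 8.82 in mixed B at P14 (-2.54 ± 0.63, adjusted p = 0.146), and Pla2g4e, a phospholipase gene, had 6.73, 6.75 and 7.02 in Ndel1 ko/cko, against 7.62, 8.44 and 8.11 in mixed B (-1.23 ± 0.31, adjusted p = 0.159). Tmem87a and Pla2g4e lie on chromosome 2 with 3 protein-coding genes between them. In these 3 genes Ndel1 ko/cko and mixed B did not overlap at P14, and Ndel1 ko/+ lay near mixed B. Ndel1 ko/+ had 8.32, 8.26 and 8.53 for Rbm45, 7.97, 8.75 and 8.79 for Tmem87a and 7.54, 8.09 and 8.31 for Pla2g4e. Mixed A at P14 was split: replicate 1 had 7.87 for Rbm45, 8.12 for Tmem87a and 7.38 for Pla2g4e. Its replicates 2 and 3 had 5.06 and 4.60, 5.06 and 5.54, and 6.17 and 6.34. That spread enters the SE of these differences, because the fit pools all groups. The cause of the split was not tested.

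Zfp874a, a zinc finger gene, had 6.74, 6.80 and 6.85 in Ndel1 ko/cko, against 5.64, 5.63 and 3.92 in mixed B (1.74 ± 0.40, adjusted p = 0.100 by limma). Cap1, which encodes an actin-binding protein, had 9.60, 8.56 and 9.66 in Ndel1 ko/cko, against 10.37, 10.42 and 10.44 in mixed B (-1.14 ± 0.29), and lies 14 protein-coding genes from Ndufs5, which was higher. Gprc5b, an orphan receptor gene, had 6.17, 6.36 and 7.55 in Ndel1 ko/cko, against 7.92, 8.51 and 8.56 in mixed B (-1.64 ± 0.46), and Cfap54, a gene of motile cilia, had 5.2, 5.57 and 6.61, against 6.91, 7.14 and 6.81 in mixed B (-1.16 ± 0.28). Adat2, a tRNA deaminase subunit gene, had 5.40, 8.15 and 5.97 in Ndel1 ko/cko, against 8.08, 7.13 and 8.16 in mixed B (-1.28 ± 0.58), and Ecrg4 had 4.41, 6.88 and 5.69 in Ndel1 ko/cko, against 7.32, 5.99 and 6.84 in mixed B (-1.06 ± 0.44). Their groups overlapped, as those of Ttr did.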
